A study of Homo sapiens with 4 samples.

Results

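The genes described here encode the WNT pathway of DAOY cells, a human medulloblastoma cell line: its ligands, receptors, antagonists, target genes and the β-catenin core. They were chosen by their symbols in the raw count table, as the WNT, FZD, SFRP, DKK and RSPO families, LGR4, LGR5 and LGR6, and 17 further genes named one by one. The rule itself used no expression value, though it was set with earlier results of these data known, and gave 61 of the 20363 genes in the table. By role these were 19 WNT ligands, 4 R-spondins, 17 receptors and co-receptors, 8 secreted antagonists, 8 feedback and target genes, and 5 genes of the cytosolic and nuclear core.

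Poly-A-enriched RNA was sequenced from 4 conditions, with 1 library each: control cells with the solvent DMSO (CTL_DMSO), control cells with SAG (CTL_SAG), and cells that overexpressed ZNF521 with DMSO (ZNF521_DMSO) or SAG (ZNF521_SAG). ZNF521 is a zinc finger transcription co-factor, and SAG is an agonist of Smoothened, the receptor component that switches on the Sonic hedgehog (HH) pathway. Per the study's methods, SAG was given for 48 h after 24 h of starvation, and ZNF521 was delivered by a lentiviral vector that also carried EGFP. Its methods let human and mouse constructs stand under the one name ZNF521, and the SAG dose of the sequenced cells is not given in the sources used here. The deposited design calls the CTL cells wild type, whereas the study describes DAOY cells with an empty vector as CTL, so it was not settled which of these was sequenced. Each condition thus stands on a single library, the ZNF521 and the SAG comparison were read from the same 4 libraries, and differences between cultures cannot be told apart from those between conditions. Nor can fewer cells that express a gene be told apart from less of its RNA per cell.

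WNT proteins bind Frizzled receptors with LRP5 or LRP6 as co-receptors, which stops a complex of APC and axin from marking β-catenin for destruction. β-catenin then enters the nucleus and acts with the TCF/LEF factors on target genes, many of which are feedback inhibitors of the pathway. R-spondins bind LGR4, LGR5 and LGR6 and shield Frizzled receptors from the ligases RNF43 and ZNRF3, whereas SFRP and DKK proteins hold back ligands or co-receptors. In the cerebellum and its tumours, WNT and HH signalling mark different subgroups of medulloblastoma.

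The libraries held 12294833 to 16314685 counts. ZNF521 itself had normalized counts, that is counts divided by the authors' size factor of the library, of 714 in CTL_DMSO, 751 in CTL_SAG, 2013 in ZNF521_DMSO and 2072 in ZNF521_SAG. Both ZNF521 libraries were above both CTL libraries, with a log2 fold change of 1.47 (SE 0.148, unadjusted p = 2.39e-07, adjusted p = 0.00357) in edgeR's quasi-likelihood test with Benjamini-Hochberg adjustment. GLI1, a direct HH target, had normalized counts of 75.4, 324, 44.2 and 318 in the same order and was higher with SAG in both cell kinds, with a log2 fold change of 2.44 (SE 0.222, unadjusted p = 7.21e-08, adjusted p = 0.00054). PTCH1, another HH target, had 468, 527, 301 and 579, with a SAG log2 fold change of 0.55 (SE 0.194, unadjusted p = 0.0142, adjusted p = 0.391). Both GLI1 and PTCH1 were lower in ZNF521_DMSO than in CTL_DMSO, whereas the study reported both higher with ZNF521 by RT-qPCR. CTL_DMSO differed most from the other libraries. Its log2 values over 9161 genes, those whose normalized counts averaged 200 or more, deviated from the mean of the 4 libraries with an SD of 0.273, against 0.126 to 0.143 in the other libraries. Of marker lists, 8 of 9 mesenchymal genes and 5 of 11 genes of granule neuron precursors averaged 50 normalized counts or more. Those 5 were ZIC1, ZIC2, PAX6, MEIS1 and MEIS2, whereas ATOH1, NEUROD1, BARHL1, CNTN2, DCX and NHLH1 lay below that level. None of 6 haematopoietic, 2 of 6 endothelial, 2 of 5 astroglial and 2 of 7 epithelial markers (KRT8 and KRT18) reached that level. The summed level of the mesenchymal markers was 143995 in CTL_DMSO and between 82776 and 89344 in the other libraries, and its part in the differences below was not tested.

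Of the 61 genes, 51 had at least 10 counts in at least 2 libraries and could be tested, and 38 averaged 50 normalized counts or more. The 10 genes that were not tested were WNT8B, WNT8A, WNT7A, WNT2, WNT16, WNT1, WNT9B, RSPO1, RSPO2 and DKK4. None of them had more than 9 counts in any library, so that differences among them were not detectable at this depth. Every receptor, feedback gene and core gene could be tested. Levels of different genes are compared below as normalized counts per kb of the Ensembl canonical transcript, averaged over the 4 libraries, and values of 1 gene are normalized counts in the order CTL_DMSO, CTL_SAG, ZNF521_DMSO and ZNF521_SAG. Where a library is left out below, 1 factor is fitted without a term for the other, and a lone library stands for 1 of its groups. Differences by the other factor then enter the value.

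**Figure D1:**
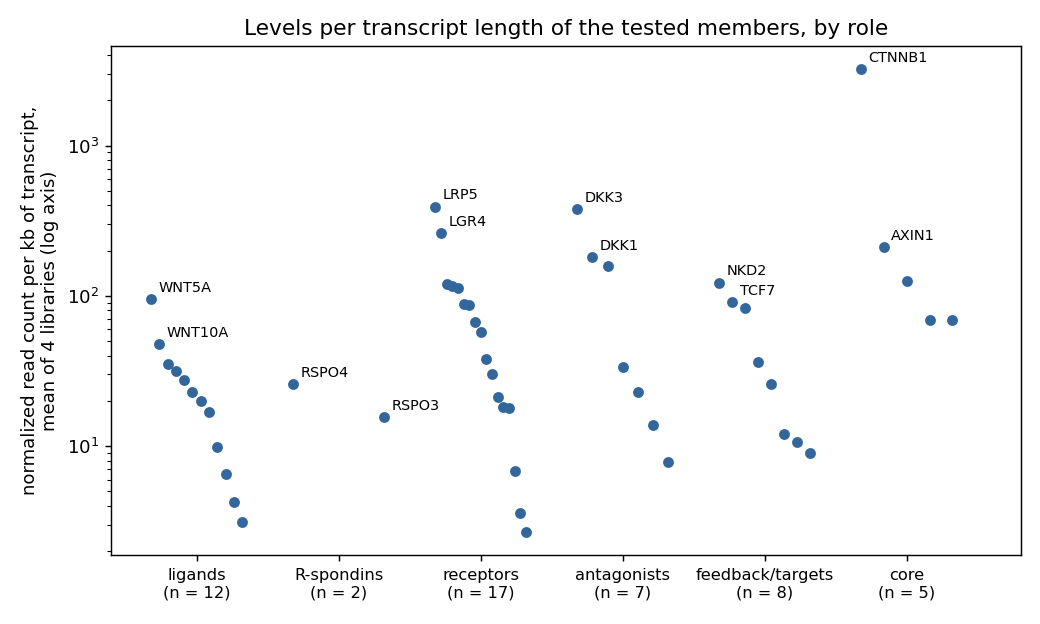
Mean normalized read count per kb of canonical transcript (log axis) of the 51 tested WNT pathway genes, 1 point per gene, in columns by role and sorted within each role. The names mark the genes with the highest values of each role, and CTNNB1 lay at 3230.4 per kb, above all others, with LRP5 at 393 and DKK3 at 377 next.

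Among the ligands, WNT5A was the most abundant per length, at 95.2 normalized counts per kb. WNT5A is known mainly for signalling through ROR receptors without β-catenin. WNT10A (47.7 per kb), WNT5B (35.1), WNT11 (31.8) and WNT3 (27.4) followed on the same scale. WNT3A, the ligand most used to stimulate the β-catenin branch in culture, lay at 3.14 per kb, and WNT1, which acts at the midbrain and hindbrain border in the embryo, was among the genes that could not be tested.

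The normalized counts of WNT5A were 472 in CTL_DMSO, 591 in CTL_SAG, 548 in ZNF521_DMSO and 613 in ZNF521_SAG. It was lowest in CTL_DMSO, and the other libraries lay close together. The ZNF521 comparison gave a log2 fold change of 0.12 (SE 0.156, unadjusted p = 0.451, adjusted p = 0.988) and the SAG comparison a log2 fold change of 0.24 (SE 0.156, unadjusted p = 0.148, adjusted p = 0.544), so neither passed. WNT10A, a ligand of the β-catenin branch, had 137 in CTL_DMSO, 90.2 in CTL_SAG, 99.8 in ZNF521_DMSO and 65.0 in ZNF521_SAG. The value was lower with SAG in both cell kinds and lower with ZNF521 under both treatments. Its log2 fold change of -0.61 (SE 0.215, unadjusted p = 0.0144, adjusted p = 0.391) for SAG and its log2 fold change of -0.47 (SE 0.215, unadjusted p = 0.0461, adjusted p = 0.91) for ZNF521 were both past the unadjusted threshold only. With CTL_DMSO, CTL_SAG, ZNF521_DMSO or ZNF521_SAG left out in turn, and the 1 factor fitted to the other 3 libraries, the SAG value of WNT10A was -0.39, -0.87, -0.85 and -0.39, in that order, and was not past the unadjusted threshold without CTL_DMSO or ZNF521_SAG. WNT10A for ZNF521 was -0.14, -0.76, -0.81 and -0.20 with each library left out in the same order, not past the unadjusted threshold without CTL_DMSO, ZNF521_DMSO or ZNF521_SAG.

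WNT9A, a ligand known from joint formation, had 103, 99.2, 87.5 and 77.6. WNT3, which acts in early axis formation, had 87.5, 86.8, 96.7 and 89.4, so that its libraries barely differed. WNT5B, a close relative of WNT5A, had 89.5, 74.4, 93.6 and 56.5 and was lowest in ZNF521_SAG. WNT2B had 91.5, 66.5, 59.7 and 70.9, with CTL_DMSO highest. WNT11, another ligand that acts largely without β-catenin, had 70.4, 55.3, 66.9 and 48.9 and was lower with SAG in both cell kinds. None of these 5 ligands reached an unadjusted p of 0.05 in either comparison.

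The 5 tested ligands with a mean below 50 were WNT10B, WNT4, WNT6, WNT7B and WNT3A, with means from 9.41 to 44.8. WNT6, which is known from epithelial and neural crest induction, was the one with an unadjusted p below 0.05. It had normalized counts of 50.3 in CTL_DMSO, 18.0 in CTL_SAG, 37.0 in ZNF521_DMSO and 10.1 in ZNF521_SAG. Both SAG libraries lay below both DMSO libraries. The SAG over DMSO ratio of WNT6 was 0.359 (95% interval 0.191 to 0.641) in CTL cells and 0.273 (95% interval 0.129 to 0.537) in ZNF521 cells, where the interval is exact (Clopper-Pearson) and covers counting error only. WNT6 had a log2 fold change of -1.65 (SE 0.351, unadjusted p = 0.000443, adjusted p = 0.391), the smallest p of all 51 genes in the SAG comparison, and did not pass after adjustment. WNT6 for SAG was -1.44, -2.10, -1.89 and -1.27 with each library left out in the same order, past the unadjusted threshold in every one. WNT6 and WNT10A lie next to each other on chromosome 2, at 218859805-218874233 and 218880852-218899581 on the plus strand of hg38.

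DKK1, on chromosome 10 at 52314281-52318042 of hg38, and WNT6 are shown by their promoters, since DKK1 was higher in both SAG libraries and WNT6 had the smallest p in the SAG comparison. DKK1 encodes an antagonist that binds LRP5 and LRP6 and is itself a known β-catenin target. The 250 bases before the RefSeq start sites (GRCh38.p14, plus strand, 5′ to 3′) lie at chr10:52314031-52314280 for DKK1 and at chr2:218859555-218859804 for WNT6, with capitals for matches to the TCF/LEF core CTTTGA on either strand:
DKK1: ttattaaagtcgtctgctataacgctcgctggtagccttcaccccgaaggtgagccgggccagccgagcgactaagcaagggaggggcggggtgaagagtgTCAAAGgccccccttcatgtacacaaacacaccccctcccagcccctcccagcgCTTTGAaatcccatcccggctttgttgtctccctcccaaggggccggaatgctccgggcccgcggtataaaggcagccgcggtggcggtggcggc
WNT6: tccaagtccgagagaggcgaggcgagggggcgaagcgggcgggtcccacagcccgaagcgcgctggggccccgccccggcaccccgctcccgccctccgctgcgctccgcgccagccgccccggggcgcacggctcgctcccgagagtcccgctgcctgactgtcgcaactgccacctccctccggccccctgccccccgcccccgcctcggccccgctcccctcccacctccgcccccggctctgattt
The DKK1 promoter held 2 matches, 1 on the minus strand at bases 102 to 107 of this window and 1 on the plus strand at bases 156 to 161, and the WNT6 promoter held none. Of the 61 genes, 43 had RefSeq promoters, 53 in number, and 1 of these 53 (1.89%), that of DKK1, held a match, against 11.2% of 35093 promoters of all genes. These 53 were from 42.4% to 87.2% G or C and were not matched to all promoters by base content, so the difference in share was not tested. AXIN2, NKD1 and ZNRF3 were among the genes without a promoter here. The GLI motif GACCACCCA, searched on both strands, was in 0 of the 53 and in 0.199% of all promoters, a share too low for 53 promoters to show a difference. The bases of WNT6 were 79.2% G or C and those of DKK1 62.8%.

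R-spondins were represented by RSPO3 and RSPO4, at 15.7 and 25.7 normalized counts per kb. RSPO4, which is known from nail formation, had normalized counts of 156 in CTL_DMSO, 38.3 in CTL_SAG, 43.2 in ZNF521_DMSO and 46.4 in ZNF521_SAG. CTL_DMSO alone was high, and the other libraries lay close together. The ratio to CTL_DMSO was 0.277 (95% interval 0.192 to 0.392) for ZNF521_DMSO and 0.246 (95% interval 0.165 to 0.359) for CTL_SAG, whereas ZNF521_SAG stood to CTL_SAG as 1.21 (95% interval 0.775 to 1.91). The additive fit gave a log2 fold change of -0.92 (SE 0.387, unadjusted p = 0.0334, adjusted p = 0.907) for ZNF521 and a log2 fold change of -1.02 (SE 0.388, unadjusted p = 0.0209, adjusted p = 0.391) for SAG. RSPO4 for ZNF521 was 0.23, -1.81, -1.08 and -1.19 with each library left out in the same order, not past the unadjusted threshold without CTL_DMSO, ZNF521_DMSO or ZNF521_SAG. RSPO4 for SAG was -0.021, -1.11, -1.87 and -1.38 with each library left out in the same order, not past the unadjusted threshold without CTL_DMSO or CTL_SAG. RSPO3, which acts in vessel and placenta formation, had 80.4 in CTL_DMSO, 54.1 in CTL_SAG, 70.0 in ZNF521_DMSO and 97.9 in ZNF521_SAG. It was lower with SAG in CTL cells, with a ratio of 0.673 (95% interval 0.461 to 0.975), and higher with SAG in ZNF521 cells, with 1.40 (95% interval 1.03 to 1.92).

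The co-receptor LRP5 was the most abundant receptor gene per length, at 393 normalized counts per kb, and its partner LRP6 had 38.2. Between them came LGR4 (262 per kb), the R-spondin receptor of most tissues, the WNT5A receptors ROR2 (121) and ROR1 (112), and the Frizzled genes FZD2 (116), FZD8 (88.5), FZD7 (86.7), FZD4 (66.9) and FZD1 (57.6). LGR5, the marker of intestinal stem cells, was at 2.67 per kb and FZD10 at 3.6. Thus 13 of the 17 receptor genes averaged 50 normalized counts or more, and all 10 Frizzled genes were tested.

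LRP5 had normalized counts of 2499 in CTL_DMSO, 1770.5 in CTL_SAG, 1983 in ZNF521_DMSO and 1893 in ZNF521_SAG. CTL_DMSO was highest. LRP5 had a log2 fold change of -0.13 (SE 0.157, unadjusted p = 0.422, adjusted p = 0.988) for ZNF521 and a log2 fold change of -0.28 (SE 0.157, unadjusted p = 0.0972, adjusted p = 0.494) for SAG, so neither passed. LGR4 had 1424, 1531, 1076 and 1468, with ZNF521_DMSO lowest. ROR1 had 711, 653, 555 and 712, again lowest in ZNF521_DMSO. ROR2 had 592, 491, 475 and 448 and was highest in CTL_DMSO. LRP6 had 418, 362, 386 and 399.9 and varied little.

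FZD4, the receptor of the vessel ligand norrin, had 543, 398, 491 and 545 and was lowest in CTL_SAG. FZD2 had 529.7, 406, 434 and 376, FZD7 had 481, 369.9, 351 and 389 and FZD8 had 432, 351, 319 and 332. These genes were all highest in CTL_DMSO, while FZD1, at 406, 380.0, 378 and 424, was not. FZD3, which guides axons, had 201, 240.2, 235 and 316 and FZD6, which orients hair, had 93.5, 121, 115 and 122. Both were lowest in CTL_DMSO and highest in ZNF521_SAG. FZD5 had 149.8, 144, 156 and 146, the most even values among the receptors. None of these 8 Frizzled genes reached an unadjusted p of 0.05 in either comparison.

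The 4 receptor genes with a mean below 50 were FZD9, LGR6, LGR5 and FZD10, with means from 11.8 to 42.9. FZD9 had normalized counts of 60.3 in CTL_DMSO, 36.1 in CTL_SAG, 48.4 in ZNF521_DMSO and 27.0 in ZNF521_SAG. Both SAG libraries lay below both DMSO libraries, with SAG over DMSO ratios of 0.598 (95% interval 0.377 to 0.934) in CTL cells and 0.558 (95% interval 0.345 to 0.894) in ZNF521 cells. In the SAG comparison FZD9 had a log2 fold change of -0.79 (SE 0.284, unadjusted p = 0.0161, adjusted p = 0.391). FZD9 for SAG was -0.64, -1.01, -0.96 and -0.59 with each library left out in the same order, not past the unadjusted threshold without CTL_DMSO or ZNF521_SAG. LGR6, which marks stem cells of the skin, had 49.3 in CTL_DMSO, 23.7 in CTL_SAG, 13.4 in ZNF521_DMSO and 13.5 in ZNF521_SAG. CTL_DMSO was highest and both ZNF521 libraries were lowest. LGR6 had a log2 fold change of -1.39 (SE 0.392, unadjusted p = 0.00374, adjusted p = 0.679), the smallest p of all 51 genes in the ZNF521 comparison, and did not pass after adjustment. LGR6 for ZNF521 was -0.81, -1.88, -1.44 and -1.47 with each library left out in the same order, not past the unadjusted threshold without CTL_DMSO.

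**Figure D2:**
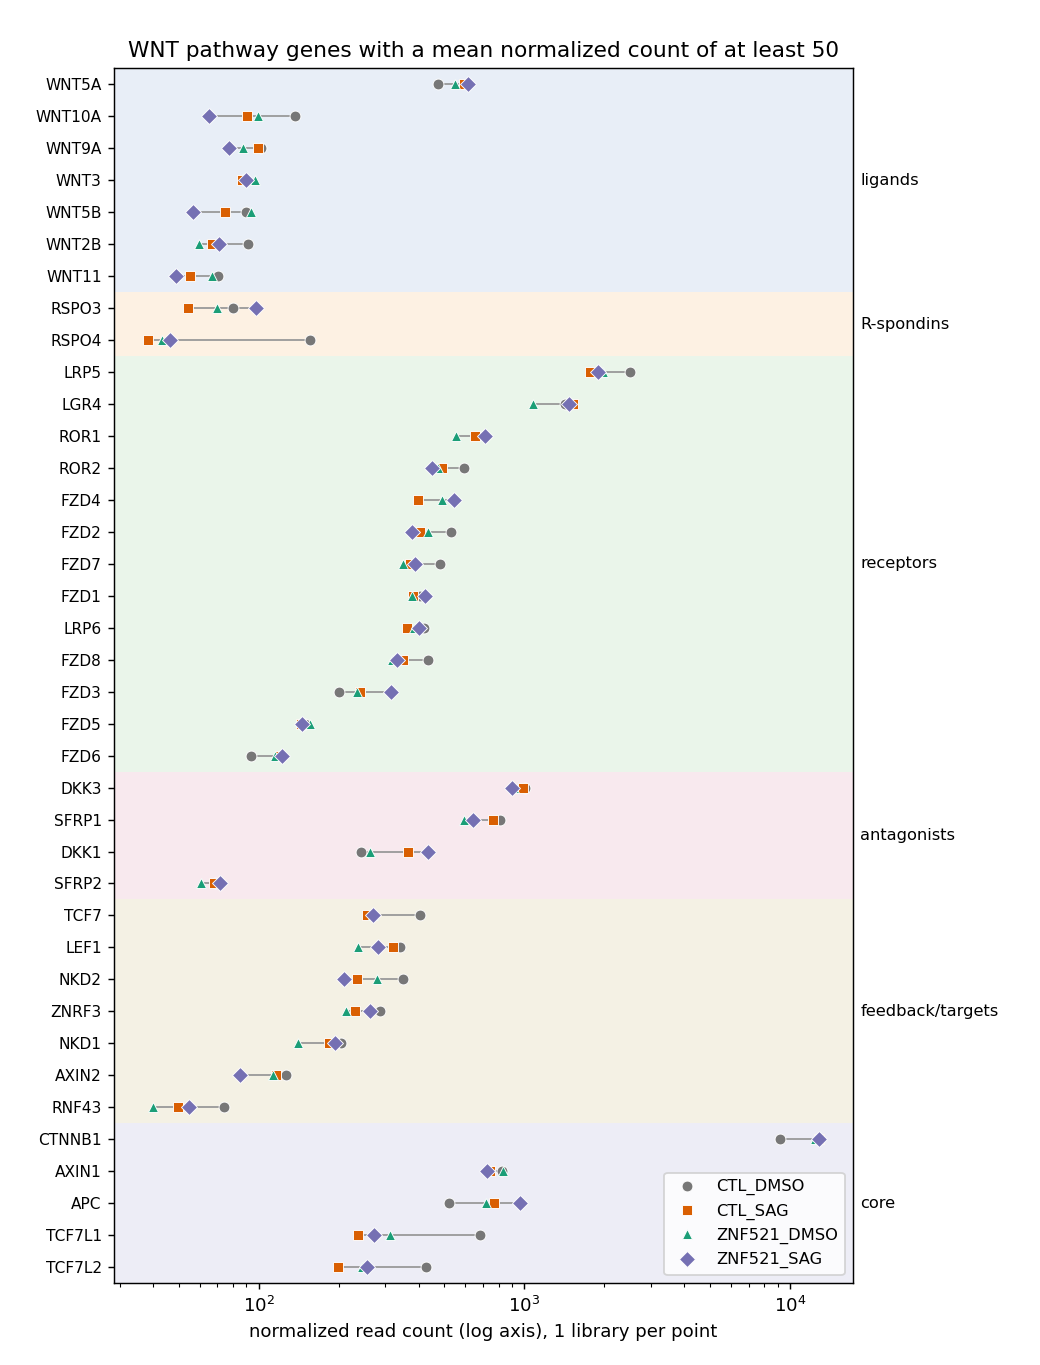
Normalized read counts (log axis) of the 38 WNT pathway genes with a mean of at least 50, 1 row per gene and 1 point per library, with a line from the lowest to the highest library. CTL_DMSO (grey circles) lay far to the right of the other libraries for RSPO4, TCF7, TCF7L1 and TCF7L2, and DKK1 was higher in both SAG libraries than in both DMSO libraries.

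Among the antagonists, DKK3, a divergent member of its family, was the most abundant per length, at 377 normalized counts per kb, ahead of DKK1 (181) and SFRP1 (157). DKK3 had normalized counts of 1004 in CTL_DMSO, 988 in CTL_SAG, 918 in ZNF521_DMSO and 896 in ZNF521_SAG. The libraries lay close together, and its log2 fold changes were -0.15 (SE 0.149) for ZNF521 and -0.03 (SE 0.149) for SAG. SFRP2, a decoy that binds WNT ligands, had 68.4, 67.7, 60.7 and 71.7 and also differed little.

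DKK1 had normalized counts of 242 in CTL_DMSO, 367 in CTL_SAG, 262 in ZNF521_DMSO and 434 in ZNF521_SAG. Both SAG libraries were above both DMSO libraries, and ZNF521_SAG was highest. The SAG over DMSO ratio of DKK1 was 1.51 (95% interval 1.28 to 1.79) in CTL cells and 1.66 (95% interval 1.42 to 1.93) in ZNF521 cells. DKK1 had a log2 fold change of 0.66 (SE 0.165, unadjusted p = 0.00153, adjusted p = 0.391) for SAG. Its unadjusted p was the second smallest of the 51 genes after WNT6, and it did not pass after adjustment. DKK1 for SAG was 0.61, 0.78, 0.72 and 0.54 with each library left out in the same order, not past the unadjusted threshold without ZNF521_SAG. For ZNF521, DKK1 had a log2 fold change of 0.17 (SE 0.165, unadjusted p = 0.316, adjusted p = 0.987).

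SFRP1, a decoy receptor for WNT ligands that is also a marker gene of the SHH subgroup of medulloblastoma, had 812 in CTL_DMSO, 765 in CTL_SAG, 591 in ZNF521_DMSO and 642 in ZNF521_SAG. Both ZNF521 libraries lay below both CTL libraries, with ZNF521 over CTL ratios of 0.727 (95% interval 0.652 to 0.810) in DMSO and 0.840 (95% interval 0.756 to 0.933) in SAG. SFRP1 had a log2 fold change of -0.37 (SE 0.155, unadjusted p = 0.035, adjusted p = 0.907) for ZNF521. SFRP1 for ZNF521 was -0.31, -0.41, -0.30 and -0.43 with each library left out in the same order, not past the unadjusted threshold without CTL_DMSO, ZNF521_DMSO or ZNF521_SAG. DKK2, an antagonist with a low mean of 28.6, had 26.1 in CTL_DMSO, 45.1 in CTL_SAG, 15.4 in ZNF521_DMSO and 27.8 in ZNF521_SAG. It was higher with SAG in both cell kinds and lower with ZNF521 under both treatments. DKK2 had a log2 fold change of 0.81 (SE 0.335, unadjusted p = 0.0312, adjusted p = 0.406) for SAG and a log2 fold change of -0.73 (SE 0.332, unadjusted p = 0.0479, adjusted p = 0.91) for ZNF521. DKK2 for SAG was 1.19, 0.42, 0.43 and 1.11 with each library left out in the same order, in fits that hold no term for ZNF521. DKK2 for ZNF521 was -1.02, -0.26, -0.35 and -1.21 with each library left out in the same order, in fits that hold no term for SAG. SFRP5 and SFRP4, with means of 42.9 and 39.9, reached no unadjusted p of 0.05.

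Of the feedback and target genes, NKD2, which binds Dishevelled, was the most abundant per length, at 123 normalized counts per kb, with TCF7 at 91.1, LEF1 at 82.5 and AXIN2, the most widely used readout of β-catenin activity, at 25.9. NKD2 had normalized counts of 349 in CTL_DMSO, 235 in CTL_SAG, 278 in ZNF521_DMSO and 209 in ZNF521_SAG. It was lower with SAG in both cell kinds. NKD2 had a log2 fold change of -0.49 (SE 0.168, unadjusted p = 0.0123, adjusted p = 0.391) for SAG and a log2 fold change of -0.26 (SE 0.168, unadjusted p = 0.146, adjusted p = 0.963) for ZNF521. NKD2 for SAG was -0.34, -0.58, -0.67 and -0.42 with each library left out in the same order, not past the unadjusted threshold without CTL_SAG or ZNF521_SAG. AXIN2 had 127 in CTL_DMSO, 116 in CTL_SAG, 113 in ZNF521_DMSO and 85.2 in ZNF521_SAG. CTL_DMSO was highest and ZNF521_SAG lowest, with a log2 fold change of -0.31 (SE 0.209, unadjusted p = 0.16) for ZNF521 and -0.27 (SE 0.209, unadjusted p = 0.227) for SAG.

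LEF1, a nuclear partner of β-catenin and a target of it, had 342 in CTL_DMSO, 321 in CTL_SAG, 236 in ZNF521_DMSO and 281 in ZNF521_SAG. It was lower with ZNF521 under both treatments, with ratios of 0.689 (95% interval 0.581 to 0.818) in DMSO and 0.874 (95% interval 0.744 to 1.03) in SAG. LEF1 had a log2 fold change of -0.37 (SE 0.172, unadjusted p = 0.0492, adjusted p = 0.91) for ZNF521. LEF1 for ZNF521 was -0.31, -0.42, -0.24 and -0.51 with each library left out in the same order, not past the unadjusted threshold without CTL_DMSO, ZNF521_DMSO or ZNF521_SAG. TCF7 had 406 in CTL_DMSO, 255 in CTL_SAG, 269 in ZNF521_DMSO and 269 in ZNF521_SAG. CTL_DMSO stood above 3 libraries that were nearly equal. The ligases ZNRF3 and RNF43, which remove Frizzled receptors from the membrane, had 285, 230.1, 213 and 263 and 74.4, 49.6, 40.1 and 54.8. Both were highest in CTL_DMSO and lowest in ZNF521_DMSO. NKD1, the paralog of NKD2, had 205, 184, 141 and 193 and was lowest in ZNF521_DMSO too.

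APCDD1, a membrane inhibitor of the pathway and the only feedback gene with a mean below 50, had normalized counts of 33.2 in CTL_DMSO, 15.8 in CTL_SAG, 54.5 in ZNF521_DMSO and 33.7 in ZNF521_SAG. It was higher with ZNF521 under both treatments, with ratios of 1.64 (95% interval 1.04 to 2.62) in DMSO and 2.14 (95% interval 1.14 to 4.25) in SAG. It was lower with SAG in both cell kinds, with 0.476 (95% interval 0.235 to 0.914) in CTL cells and 0.619 (95% interval 0.400 to 0.951) in ZNF521 cells. APCDD1 had a log2 fold change of 0.85 (SE 0.317, unadjusted p = 0.0188, adjusted p = 0.893) for ZNF521 and a log2 fold change of -0.83 (SE 0.315, unadjusted p = 0.0208, adjusted p = 0.391) for SAG. APCDD1 for ZNF521 was 1.46, 0.37, 0.44 and 1.12 with each library left out in the same order, in fits that hold no term for SAG. APCDD1 for SAG was -1.08, -0.37, -0.37 and -1.46 with each library left out in the same order, in fits that hold no term for ZNF521.

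In the core, CTNNB1, which encodes β-catenin, had 3230.4 normalized counts per kb, AXIN1 210.4, TCF7L1 126, and APC and TCF7L2 69.2 each. CTNNB1 had normalized counts of 9171 in CTL_DMSO, 12881 in CTL_SAG, 12393 in ZNF521_DMSO and 12861 in ZNF521_SAG. CTL_DMSO was low and the other libraries were within a narrow band. CTNNB1 had a log2 fold change of 0.20 (SE 0.179, unadjusted p = 0.274, adjusted p = 0.984) for ZNF521 and a log2 fold change of 0.27 (SE 0.179, unadjusted p = 0.153, adjusted p = 0.552) for SAG, and without CTL_DMSO its ZNF521 value was -0.024. AXIN1, a scaffold of the destruction complex, had 822, 744, 830.4 and 723 and varied little.

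APC, the scaffold that is lost in colon tumours, had 519 in CTL_DMSO, 767 in CTL_SAG, 716 in ZNF521_DMSO and 962 in ZNF521_SAG. The value was lowest in CTL_DMSO and highest in ZNF521_SAG, and both factors went with higher values in each pair. APC had a log2 fold change of 0.49 (SE 0.153, unadjusted p = 0.00674, adjusted p = 0.391) for SAG and a log2 fold change of 0.38 (SE 0.153, unadjusted p = 0.0263, adjusted p = 0.893) for ZNF521. APC for SAG was 0.27, 0.64, 0.73 and 0.31 with each library left out in the same order, not past the unadjusted threshold without ZNF521_SAG. APC for ZNF521 was 0.14, 0.68, 0.58 and 0.14 with each library left out in the same order, not past the unadjusted threshold without CTL_DMSO, ZNF521_DMSO or ZNF521_SAG. TCF7L1, the TCF factor known mainly as a repressor, had 682 in CTL_DMSO, 237 in CTL_SAG, 313 in ZNF521_DMSO and 273 in ZNF521_SAG. CTL_DMSO alone was high. The ratio of TCF7L1 to CTL_DMSO was 0.347 (95% interval 0.296 to 0.406) in CTL_SAG and 0.459 (95% interval 0.400 to 0.526) in ZNF521_DMSO, whereas SAG over DMSO in ZNF521 cells was 0.871 (95% interval 0.743 to 1.02). TCF7L1 had a log2 fold change of -0.86 (SE 0.253, unadjusted p = 0.00477, adjusted p = 0.391) for SAG. TCF7L2, the main TCF factor of the gut, had 428 in CTL_DMSO, 198 in CTL_SAG, 246 in ZNF521_DMSO and 256 in ZNF521_SAG, again with CTL_DMSO alone high, and a log2 fold change of -0.52 (SE 0.237, unadjusted p = 0.0464, adjusted p = 0.432) for SAG. TCF7L1 for SAG was -0.30, -0.87, -1.42 and -1.07 with each library left out in the same order, not past the unadjusted threshold without CTL_DMSO. TCF7L2 for SAG was -0.11, -0.40, -0.91 and -0.77 with each library left out in the same order, not past the unadjusted threshold without CTL_DMSO or CTL_SAG.

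The ZNF521 comparison asked which WNT genes differ when ZNF521 is overexpressed, over both treatments. At an adjusted p of 0.05, 0 of the 51 genes passed, where 0.00668% of all 14970 tested genes, ZNF521 alone, did. DESeq2 and limma also gave 0, and without CTL_SAG 12 passed, where 15.6% of all genes did. At an unadjusted p of at most 0.05, 8 of 51 were past it against 5.48% of all genes. The study used the same cutoff with a different test and filter, a paired t test on normalized counts. APC and APCDD1 were higher, where 2.36% of all genes were higher, and DKK2, LEF1, LGR6, RSPO4, SFRP1 and WNT10A were lower, where 3.11% of all genes were lower. Of the 51, 38 had a log2 fold change below 0 and 13 above, where 7577 of all 14970 tested genes were below 0. The median of the 51 was -0.24, against -0.003 over all genes. By role, 10 of 12 ligands, 11 of 17 receptors, 6 of 7 antagonists, 7 of 8 feedback genes and 3 of 5 core genes had a value below 0.

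The SAG comparison asked which WNT genes differ when the HH pathway is stimulated, over both cell kinds. At an adjusted p of 0.05, 0 of the 51 genes passed, where 0.0401% of all genes did, 6 in number. DESeq2 and limma also gave 0. Without CTL_DMSO, where ZNF521_DMSO alone stands for DMSO, the log2 fold change was -1.44 for WNT6, 0.61 for DKK1, -0.021 for RSPO4 and -0.11 for TCF7L2. At an unadjusted p of at most 0.05, 11 of 51 were past it against 11.3% of all genes. APC, DKK1 and DKK2 were higher, where 6.21% of all genes were higher, and APCDD1, FZD9, NKD2, RSPO4, TCF7L1, TCF7L2, WNT10A and WNT6 were lower, where 5.12% of all genes were lower. The median log2 fold change of the 51 was -0.11, against 0.0006 over all genes, with 34 values below 0 and 17 above. Of all 14970 tested genes, 7473 had a value below 0. By role, 10 of 12 ligands and 6 of 8 feedback genes had a value below 0, while 5 of 7 antagonists had a value above 0 (median 0.12). The median GC content of the 61 transcripts was 53.5% against 48.8% over all genes. With GC content as an offset 6 of the 11 genes (WNT6, DKK1, TCF7L1, TCF7L2, RSPO4 and APCDD1) were past an unadjusted p of 0.05, where 4.32% of all genes were. WNT10A, FZD9, NKD2, APC and DKK2 were not, with log2 fold changes of -0.38, -0.48, -0.20, 0.26 and 0.63 in that fit.

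**Figure D3:**
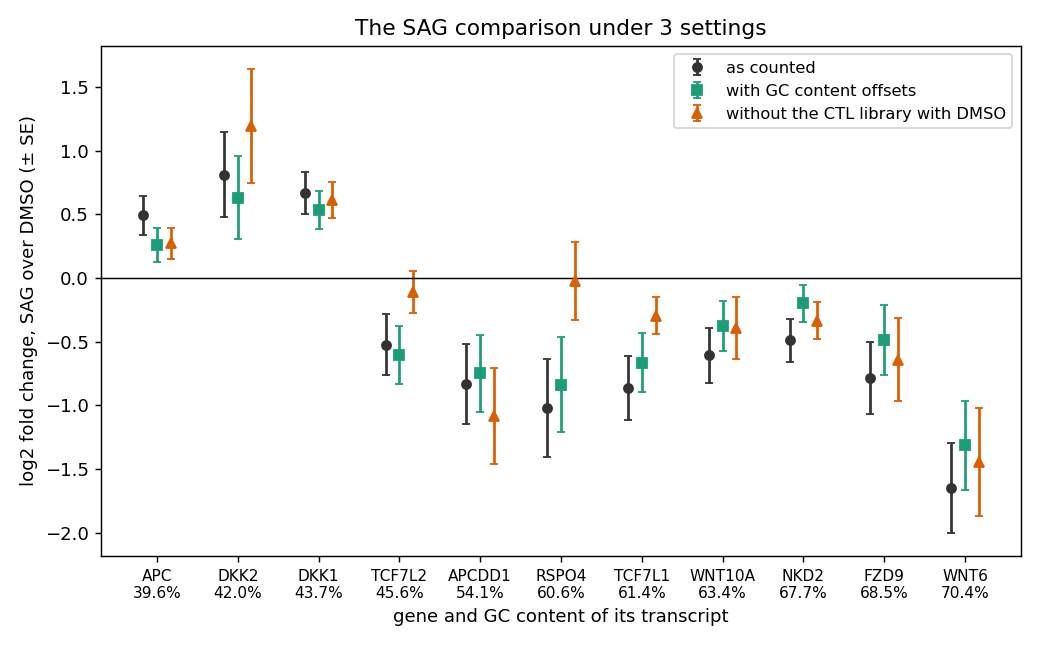
Log2 fold change for SAG over DMSO (points, bars are ± SE) of the 11 genes with an unadjusted p of at most 0.05, as counted, with GC content offsets, and without CTL_DMSO, ordered by the GC content of the transcript printed under each name. WNT6 and DKK1 kept their direction and most of their size in the 3 settings, while RSPO4 and TCF7L2 lay near 0 without CTL_DMSO.

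The model leaves 1 residual degree of freedom, so each pair of libraries was also read on its own, and a gene was called when its ratio was past 1.5-fold with a 95% interval that left out 1. Of ZNF521 over CTL in DMSO, 1 of the 51 genes, APCDD1, was called higher, against 5.0% of all genes, and 8 were called lower, against 6.16%: LGR6, RNF43, RSPO4, TCF7, TCF7L1, TCF7L2, WNT2B and WNT7B. WNT7B, a ligand of vessels and lung, had 28.1, 12.4, 11.3 and 15.2, with CTL_DMSO alone high. In SAG, APCDD1 and RSPO3 were called higher (all genes 1.28%), and LGR5 and SFRP5 lower (1.11%). LGR5 had 9.05, 18.0, 18.5 and 3.37 and SFRP5 52.3, 48.5, 41.2 and 29.5, and both were lowest in ZNF521_SAG. The median log2 ratio of the 51 genes was -0.32 in DMSO and 0.02 in SAG. In DMSO 38 of the 51 ratios were below 1, against 47.4% of all genes, and in SAG 25 were, against 50.6%.

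Of SAG over DMSO in CTL cells, DKK1 and DKK2 were called higher, against 7.0% of all genes, and 10 genes lower, against 7.68%: APCDD1, FZD9, LGR6, RSPO4, TCF7, TCF7L1, TCF7L2, WNT10A, WNT6 and WNT7B. In ZNF521 cells, DKK1 was called higher (all genes 0.989%), and APCDD1, FZD9, LGR5, WNT10A, WNT5B and WNT6 lower (1.58%). The median log2 ratio was -0.21 in CTL cells and 0.06 in ZNF521 cells. In CTL cells 40 of the 51 ratios were below 1, against 49.0% of all genes, and in ZNF521 cells 21 were, against 48.7%.

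Pairs of the same factor share no library. In both SAG pairs DKK1 was called higher, as 0.22% of all genes were, and 4 of the 51 genes, WNT10A, WNT6, FZD9 and APCDD1, were called lower, as 0.434% of all genes were. The SAG over DMSO ratio of WNT10A, not given above, was 0.660 (95% interval 0.494 to 0.876) in CTL cells and 0.651 (95% interval 0.476 to 0.887) in ZNF521 cells. The ratios hold no GC content offset. With that offset in the fit, the SAG log2 fold changes of WNT10A and FZD9 were -0.38 and -0.48, not past the unadjusted threshold. In both ZNF521 pairs APCDD1 was called higher, as 0.214% of all genes were, and 0 of the 51 genes were called lower, as 0.314% of all genes were. The pairs of a factor lay on opposite sides of 1, each with its interval off 1, for 2 of the 51 genes for ZNF521 (LRP5 and TCF7L2), as for 5.8% of all genes, and for 2 for SAG (RSPO3 and ZNRF3), as for 5.26%. This made 4 of the 51 genes, against 8.92% of all genes.

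**Figure D4:**
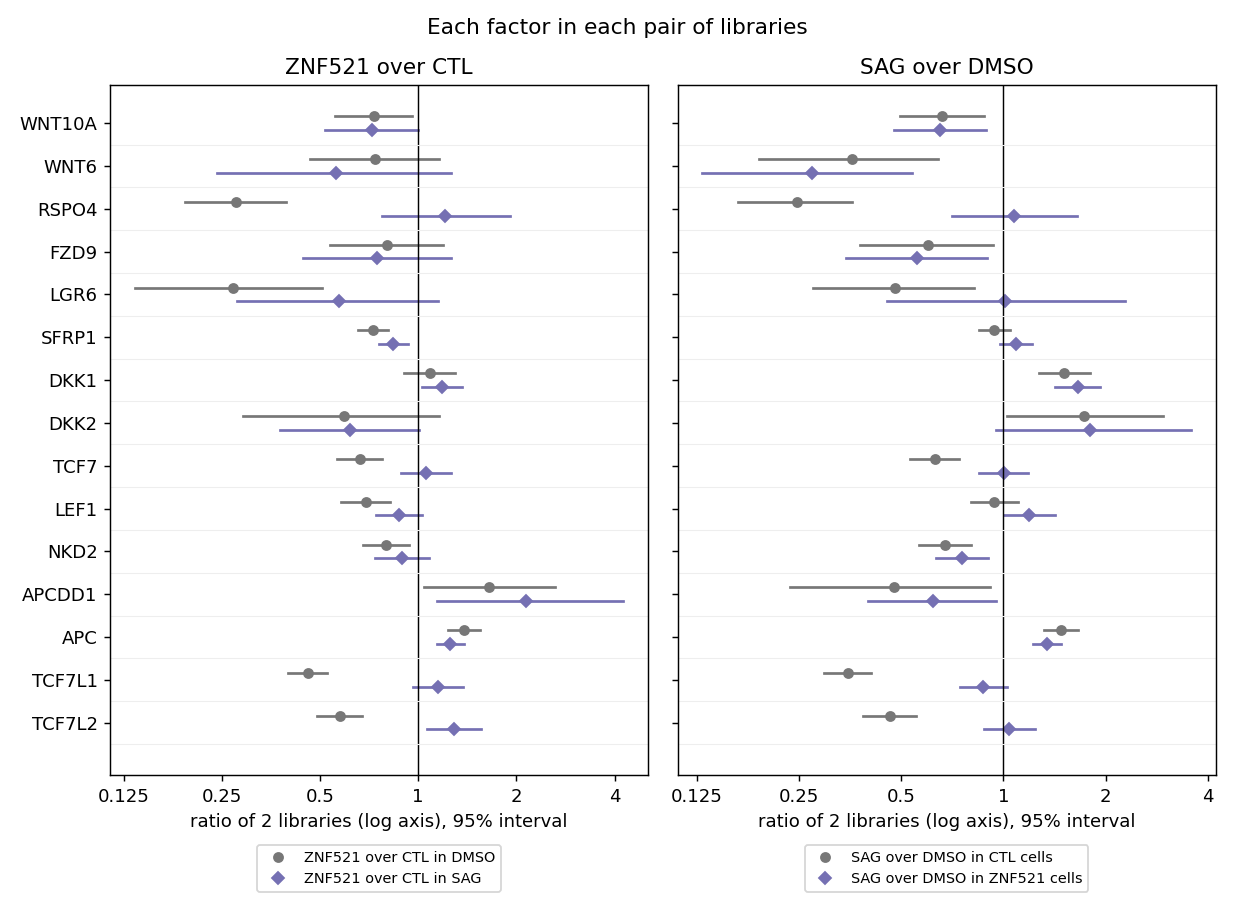
Ratios of 2 libraries (log axis) with exact 95% intervals, which cover counting error only, for TCF7 and the 14 genes with an unadjusted p of at most 0.05 in either comparison. The left panel gives ZNF521 over CTL in DMSO (grey) and SAG (purple), and the right panel SAG over DMSO in CTL cells (grey) and ZNF521 cells (purple). For DKK1, WNT6, WNT10A, FZD9 and APCDD1 both SAG ratios were past 1.5-fold in the same direction with intervals off 1. For APC and NKD2 both SAG intervals also lay off 1 on the same side, at smaller ratios. All these ratios hold no GC content offset. DKK2 was higher in both SAG pairs, with its interval off 1 in CTL cells only. For RSPO4, TCF7L1, TCF7L2 and TCF7 the ratios to CTL_DMSO lay farthest from 1, all below it. The ZNF521 over CTL ratio of TCF7L2 in SAG was above 1, at 1.29 (95% interval 1.07 to 1.56).

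CTL_DMSO entered 1 pair of each factor. It was the highest library for 29 of the 51 genes (56.9%), against 34.5% of all genes, and the lowest for 6 of the 51 (11.8%), against 37.5% of all genes. By role it was highest for 7 of 8 feedback genes, all but APCDD1, for 7 of 12 ligands, 9 of 17 receptors, 3 of 7 antagonists and 2 of 5 core genes. It exceeded each of the other libraries by over 1.5-fold for 6 of the 51 genes (11.8%), namely WNT7B, RSPO4, LGR6, TCF7, TCF7L1 and TCF7L2, against 4.42% of all genes, and lay below each by as much for 0 of the 51, against 3.68%. Whether this library differs by its culture, its RNA or its preparation cannot be told apart from its condition.

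Further genes of the pathway, in lists that none of the 61 genes belong to, were read in the same fits. Over all tested genes, an unadjusted p of 0.05 was reached by 5.48% for ZNF521 (3.11% lower) and by 11.3% for SAG (5.12% lower). Of 16 tested genes of WNT secretion and extracellular modulators, 0 passed after adjustment in either comparison, and an unadjusted p of 0.05 was reached by 2 for ZNF521, both lower, and by 3 for SAG, all lower. GPC3, a glypican, had 458, 250.3, 406 and 349 (SAG log2 fold change -0.54, unadjusted p = 0.0137), and DRAXIN, an axon guidance factor, 109.6, 104, 81.3 and 71.7 (ZNF521 log2 fold change -0.49, unadjusted p = 0.0428). Of 17 genes of planar polarity and alternative receptors, 0 were past the unadjusted threshold for ZNF521 and 3 for SAG, the cadherins CELSR1, CELSR2 and CELSR3, all lower. CELSR2 had 1518, 636, 816 and 708 (SAG log2 fold change -0.73, unadjusted p = 0.00498), with CTL_DMSO alone high.

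Of 24 tested cytosolic transducers, 0 were past the unadjusted threshold for ZNF521 and 1 for SAG, APC2, a relative of APC, which had 512, 250.3, 363 and 289 (SAG log2 fold change -0.68, unadjusted p = 0.00397). Of 20 nuclear co-factors of β-catenin, 1 was lower for ZNF521, and for SAG 1 was lower and 1 higher. BCL9L, which links β-catenin to Pygopus, had 1289.7, 477, 613 and 513 and was lower in both (SAG log2 fold change -0.85, unadjusted p = 0.00293), with CTL_DMSO alone high, and TBL1XR1, part of a co-repressor complex, had 2991, 4989, 4199 and 4859.6 (SAG log2 fold change 0.47, unadjusted p = 0.0148). Of 26 tested further target genes, 2 were lower for ZNF521, and for SAG 2 were lower and 1 higher. L1CAM, an adhesion molecule, had 444, 169, 222 and 197 (SAG log2 fold change -0.78, unadjusted p = 0.00721), NRCAM, its relative, 139, 113, 87.5 and 83.5 (ZNF521 log2 fold change -0.56, unadjusted p = 0.0205), and ENC1 1869.7, 2223, 1648 and 2190.2 (SAG log2 fold change 0.33, unadjusted p = 0.0419). In all these lists 0 genes passed after adjustment, against 0.00668% of all genes for ZNF521 and 0.0401% for SAG. At the unadjusted threshold the shares of all genes were 5.48% and 11.3%. The median log2 fold changes of these lists ran from -0.13 to -0.04 for ZNF521 and from -0.19 to -0.04 for SAG.

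Marker genes that separate the WNT from the SHH subgroup of medulloblastoma were present for both. Of the WNT subgroup, TNC, GAD1 and EMX2 had a mean of at least 50, and WIF1 and DKK2 had not. TNC, a matrix glycoprotein, had 24765 in CTL_DMSO, 14255 in CTL_SAG, 15162 in ZNF521_DMSO and 14921 in ZNF521_SAG, with CTL_DMSO alone high. Of the SHH subgroup, PDLIM3, EYA1 and SFRP1 had a mean of at least 50, and ATOH1 and HHIP had not. HHIP, an HH target that is also its inhibitor, had 8.04 in CTL_DMSO, 54.1 in CTL_SAG, 7.2 in ZNF521_DMSO and 78.5 in ZNF521_SAG and rose with SAG, with a log2 fold change of 3.09 (SE 0.371, unadjusted p = 1.64e-06, adjusted p = 0.00613), the only gene of both marker lists that passed after adjustment.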

How the data were processed

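The authors mapped paired 50 nt reads of strand-specific libraries against hg38, and STAR 2.7.0e, named in their processing notes, gave the whole read counts per gene that the deposited raw table holds. The signal values of the second table are counts that the authors divided by 1 size factor per library (0.887 to 1.19, median of ratios, DESeq2) before they were deposited. The annotation and the strand setting are not given in the sources used here, so reads of overlapping genes on opposite strands may be shared.

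Genes that reached 10 counts in 2 or more libraries, 14970 in all, were fitted with edgeR 4.0.16 (R 4.3.3, TMM, glmQLFit and glmQLFTest), with ZNF521 and treatment as additive terms, 1 residual and 11.7 prior degrees of freedom, and Benjamini-Hochberg adjustment over all of them. The deposited design and the methods name no separate cultures, so p-values do not measure a spread between cultures of a condition. The 1 residual degree of freedom is the departure of the 4 libraries from additive ZNF521 and treatment terms, moderated by the prior over all genes. A difference in CTL_DMSO alone enters that departure. On simulated counts for these 14970 genes, 80 of 100 genes changed 2-fold and 97 of 100 changed 4-fold were recovered in the ZNF521 comparison, and 75 and 99 in the SAG comparison, with 10 and 5 false calls. The simulation gave genes of the same level the same dispersion, made all changes additive, and held no library that stood apart as CTL_DMSO did. It therefore does not give the recovery in these data, where WNT6 had an edgeR log2 fold change of -1.65 for SAG with an adjusted p of 0.391.

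Ratios of 2 libraries were taken from the size factors, with exact 95% intervals (Clopper-Pearson) that cover counting error only. Alternatives were RLE factors, library size alone, no filter, a mean count of at least 50, GC content offsets (GENCODE transcripts), limma 3.58.1 (trend on the mean), DESeq2 1.42.0, single-factor fits without the block, TMM factors for ratios, and each library left out. With a library left out, the fit was single-factor too, so differences by the other factor enter its values. Genes that averaged 50 normalized counts or more were given with all libraries, and those with an unadjusted p of at most 0.05 or the highest level per length of their role with fold changes. The genes and lists were chosen with earlier results of these data known.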

Additional observations from a re-analysis of the deposited data

Results flagged for a closer look

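A factor went in opposite directions in its 2 pairs of libraries, with each 95% interval on its own side of 1, for 4 of the 51 tested genes, as for 8.92% of all 14970 tested genes. The ZNF521 over CTL ratio of LRP5 was 0.793 in DMSO and 1.07 in SAG, and that of TCF7L2 was 0.574 in DMSO and 1.29 in SAG. The SAG over DMSO ratio of RSPO3 was 0.673 in CTL cells and 1.40 in ZNF521 cells, and that of ZNRF3 was 0.806 in CTL cells and 1.24 in ZNF521 cells. These intervals cover counting error only, and with 1 library per condition the difference between the pairs was not tested. CTL_DMSO was the highest library for LRP5, TCF7L2 and ZNRF3, and ZNF521_SAG for RSPO3.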

How the results depend on the processing

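At an adjusted p of 0.05, 0 of the 51 genes passed in both comparisons under every alternative that kept the 4 libraries, except for SAG without a filter on low counts, where 4 did, as 223 of 20363 genes did (DKK1, RSPO4, TCF7L1 and WNT6). At an unadjusted p of 0.05 the 8 genes for ZNF521 became 4 of 38 with a mean count of at least 50 (all genes 5.26%), 0 with DESeq2 (1.12%) and 1 with no block (2.97%), and the 11 for SAG became 6 with GC content offsets (4.32%), 4 with DESeq2 (2.83%) and 7 with no block (9.38%). With 1 library left out, 0 to 12 genes passed for ZNF521 after adjustment and 2 to 22 before it, the most without CTL_SAG (15.6% and 27.8% of all genes), where ZNF521_DMSO and ZNF521_SAG are set against CTL_DMSO alone. For SAG 0 to 18 passed after adjustment and 6 to 20 before it, the most without ZNF521_DMSO (30.6% and 40.8% of all genes), where CTL_DMSO is again the lone library of its group and is assumed to vary like the others. Without CTL_DMSO, the SAG log2 fold changes of WNT6 and DKK1 were -1.44 and 0.61, and those of RSPO4 and TCF7L2 were -0.021 and -0.11. Log2 fold changes for ZNF521 over these fits ran from -0.024 to 0.45 for CTNNB1, -0.38 to 0.14 for LRP5, -0.54 to 0.052 for NKD2, -1.81 to 0.23 for RSPO4 and -0.020 to 0.28 for WNT5A, with the sign turned without CTL_DMSO in each. DKK3 for SAG ran from -0.10 to 0.040 over these fits and was 0.023 with GC content offsets. Over the single genes named, 103 of 153 alternative values for ZNF521 kept their direction and their side of the unadjusted threshold, 42 lost the threshold, 3 gained it and 5 changed sign, and of 176 for SAG these were 137, 33, 3 and 3. Depth limits the 13 tested genes with means below 50.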
